A study of Homo sapiens with 2 samples.

Results

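Gene desert regions are stretches of open chromatin that lie 500 kb or more from the nearest end of any protein-coding gene and outside all such genes. They were taken from peak lists of the assay for transposase-accessible chromatin with sequencing (ATAC-seq), in which the transposase Tn5 cuts and tags DNA that is not packed by nucleosomes or other proteins. The cells were CAL27, an established human line of oral squamous cell carcinoma, and the labels name no genetic change, so both groups shared the line's own genotype. The untreated group held 1 library, and the lactate group held 1 library of cells given 10 mM lactate for 24 h. Per the labels' protocols, cells of both groups were thawed from frozen vials before nuclei were collected. The study's title places the experiment within work on lactate and lactylation in oral carcinoma. On chromosomes 1 to 22 and X, the rule gave 2294 of 81142 regions in the untreated list, or 2.83% (exact 95% binomial interval 2.71 to 2.94%). It gave 2772 of 102720 in the lactate list, or 2.70% (2.60 to 2.80%). Regions with a single summit and a width within 4 bp of 222 bp, called narrow here, were left out of these numbers, and distances were taken to 19974 protein-coding genes of the RefSeq annotation of GRCh38.p14, which is the hg38 build. The choice used position and width only.

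With 1 library in each group there is no measure of variation between cultures. All values below therefore compare these libraries and not the conditions, no test was made, and intervals cover counting error only. The file headers count 18248413 tags for the untreated library and 15401276 for the lactate library. Labelled cell identity was set against marker genes by asking whether a region lay in the gene or within 1 kb of it. Of 10 squamous keratinocyte markers, 8 had a region in the untreated list and 9 in the lactate list, with none at KRT14, a basal keratin. Markers of fibroblasts and of leukocytes each had a region at 4 of 5 genes in both lists, and 78.8% and 82.7% of all coding genes had one. This measure therefore did not set the labelled cell type apart from the others.

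Gene deserts are long intervals without coding genes, and many of them are old and stable features of vertebrate chromosomes. Some lie beside genes that direct development, such as SOX9 and MYC, and hold enhancers that reach their target promoter across great distances within the folded chromosome. Others hold few known elements and are rich in A and T, repeats and compact, late-replicating chromatin. Long non-coding RNAs (lncRNAs), microRNAs and pseudogenes can lie within them, since the term refers to coding genes only.

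Promoters of lncRNAs are the elements of deserts for which sequence was at hand. RefSeq promoter windows (GRCh38.p14) run from 250 bases before to 50 bases after a transcript start. Of 654 windows of desert lncRNAs, 13 (1.99%, 1.06 to 3.38%) were overlapped by an untreated region and 20 (3.06%, 1.88 to 4.68%) by a lactate region. Among 3670 windows of intergenic lncRNAs within 50 kb of a coding gene, the shares were 24.99% and 27.2%, and among 22132 windows of coding genes 51.0% and 56.1%. Desert windows were thus seldom open in either list. Over the whole lists, 30.2% of lactate regions and 11.0% of untreated regions had no counterpart in the other list. Of the desert windows, 12 were open in both lists, 8 in the lactate list alone and 1 in the untreated list alone. The sequences below show 6 of the 12, which differ widely in base composition. Each is written 5′ to 3′ along its transcript, and capitals mark matches on either strand to 6 short motifs. The AP-1 motif was searched as TGANTCA. The string for the TATA box was TATAAA. For the GC box bound by SP1 it was GGGCGG. The ETS core was written CCGGAAG. For the CCAAT box the letters of its name served. The motif of TEAD factors was taken as GGAATG.
LINC02226, chr5:8457515-8457814, minus strand: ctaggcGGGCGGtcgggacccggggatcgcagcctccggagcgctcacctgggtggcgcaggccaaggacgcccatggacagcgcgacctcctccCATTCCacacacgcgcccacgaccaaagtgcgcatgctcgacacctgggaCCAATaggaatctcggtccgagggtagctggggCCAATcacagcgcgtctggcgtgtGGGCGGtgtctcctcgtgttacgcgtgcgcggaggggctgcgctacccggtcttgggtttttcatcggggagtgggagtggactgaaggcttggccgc
LINC02015, chr3:177816615-177816914, plus strand: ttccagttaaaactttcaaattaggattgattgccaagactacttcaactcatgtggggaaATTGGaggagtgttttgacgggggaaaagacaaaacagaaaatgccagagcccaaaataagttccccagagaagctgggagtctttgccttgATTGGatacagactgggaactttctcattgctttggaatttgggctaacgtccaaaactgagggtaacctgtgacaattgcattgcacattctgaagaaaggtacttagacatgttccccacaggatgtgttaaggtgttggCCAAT
LOC105377950, chr6:112879867-112880166, plus strand: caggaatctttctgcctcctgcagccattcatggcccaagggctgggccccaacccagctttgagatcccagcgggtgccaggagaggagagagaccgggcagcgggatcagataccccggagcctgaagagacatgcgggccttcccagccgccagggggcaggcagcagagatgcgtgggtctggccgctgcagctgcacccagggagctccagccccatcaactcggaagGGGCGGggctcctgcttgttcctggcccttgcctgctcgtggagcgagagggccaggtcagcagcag
LINC02595, chrX:45851441-45851740, minus strand: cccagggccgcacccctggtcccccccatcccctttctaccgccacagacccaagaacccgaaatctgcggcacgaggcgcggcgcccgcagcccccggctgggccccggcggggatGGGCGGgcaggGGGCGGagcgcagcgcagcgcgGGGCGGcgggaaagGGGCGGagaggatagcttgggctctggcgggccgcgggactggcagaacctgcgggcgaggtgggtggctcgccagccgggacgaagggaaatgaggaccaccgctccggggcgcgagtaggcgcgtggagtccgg
MIR222HG, chrX:45770218-45770517, minus strand: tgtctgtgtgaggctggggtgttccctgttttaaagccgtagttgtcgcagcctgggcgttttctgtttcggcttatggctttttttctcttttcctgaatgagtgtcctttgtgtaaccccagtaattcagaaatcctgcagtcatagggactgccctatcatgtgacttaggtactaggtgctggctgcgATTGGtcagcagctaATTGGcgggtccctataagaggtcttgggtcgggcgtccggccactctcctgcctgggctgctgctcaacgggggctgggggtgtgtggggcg
LOC102724463, chr6:14658901-14659200, plus strand: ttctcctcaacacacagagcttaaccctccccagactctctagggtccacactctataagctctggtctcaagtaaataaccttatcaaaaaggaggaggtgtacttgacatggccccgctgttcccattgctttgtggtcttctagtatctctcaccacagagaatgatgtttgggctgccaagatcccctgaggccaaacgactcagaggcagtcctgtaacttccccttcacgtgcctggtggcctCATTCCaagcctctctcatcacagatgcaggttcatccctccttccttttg

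LINC02226 has a GC content of 67.3% and holds CpG-rich sequence with GC box, CCAAT box and TEAD matches, whereas LINC02015 has 42.7% and holds only CCAAT box matches. The region over LINC02226 spanned 1039 bp, covered the start of the divergent lncRNA MIR4458HG as well, and had 88 untreated and 160 lactate tags at its summit. The region over LINC02015 had 35 and 44 tags, that over LOC105377950 had 45 tags in the 2 libraries together, and that over MIR222HG had 12 and 26. Median GC content was 39.3% over all 654 desert windows, 49.2% over the 12 open in both lists and 58.7% over all 34961 promoter windows of the table. Among desert windows, 33.0% held the TATA box string against 11.5% of all windows, and 8.41% held the GC box against 45.03%. The AP-1 motif was found in 13.1% of desert windows against 7.68%, the ETS core in 1.99% against 10.3%, the TEAD motif in 16.97% against 14.04% and the CCAAT box in 36.4% against 34.6%. Of the 21 desert windows under a region in either list, 4 held the AP-1 motif, 6 the GC box, 10 the CCAAT box, 3 the TEAD motif, 3 the TATA box and none the ETS core. Both strands were searched, no string contains another, and matches to different strings may overlap. These are matches of letters and not measured binding.

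MicroRNAs encoded in deserts can be followed in the same way, and the pair MIR221 and MIR222, which are known as regulators of the cell cycle inhibitor CDKN1B, lies in a desert of the X chromosome. Their 3p forms, as given by RefSeq, share the seed at bases 2 to 8, which is printed in capitals.
miR-221-3p, chrX:45746180-45746202, minus strand: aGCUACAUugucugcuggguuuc
miR-222-3p, chrX:45747036-45747056, minus strand: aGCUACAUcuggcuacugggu
The nearest desert region, chrX:45742777-45743730, lay 2427 bp from the MIR221 hairpin and 3285 bp from that of MIR222. Its summit held 26 untreated and 54 lactate tags, which is 2.46 times as high in lactate per total tags. Over the desert regions found in both lists, this value had a median of 1.46 and was 2 or more in 22.9%. The desert of MIR221 and MIR222 was chosen after its values were seen. MIR4465 and MIR7977 were the only miRNA genes within 1 kb of a desert region. The region near MIR4465 had 13 tags in each library, and that near MIR7977 had 9 in each.

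Open regions were sparser far from coding genes than near them in both libraries. Deserts that span no centromere covered 227.7 Mb and held 9.67 untreated regions per Mb (exact 95% Poisson interval 9.27 to 10.1) and 11.7 lactate regions per Mb (11.3 to 12.2). Intergenic sequence within 50 kb of a coding gene, 598 Mb in all, held 35.1 and 45.1 per Mb. Unsequenced stretches of the assembly were not subtracted from the lengths behind these and later values per Mb. The decline ran from 40.6 and 51.2 per Mb within 10 kb to 11.0 and 14.3 at 400 to 500 kb, so 500 kb marks no step. Within the deserts, 10.6 and 12.4 per Mb were found at 500 to 750 kb, 8.48 and 11.2 at 750 kb to 1 Mb, and 9.07 and 11.0 beyond 1 Mb, so the untreated values did not fall further there. The narrow regions took the opposite course, from 4.51 to 9.53 per Mb without and from 5.38 to 10.8 with lactate. They made up 1928 of 4222 desert regions before they were left out (45.7%) in the untreated list and 2228 of 5000 (44.6%) in the lactate list, against 12.4% and 11.3% near genes. Desert numbers therefore depend on the width rule far more than numbers near genes do. The lactate list was 1.21 times as long as the untreated list in deserts and 1.28 times as long within 50 kb of genes.

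**Figure D1:**
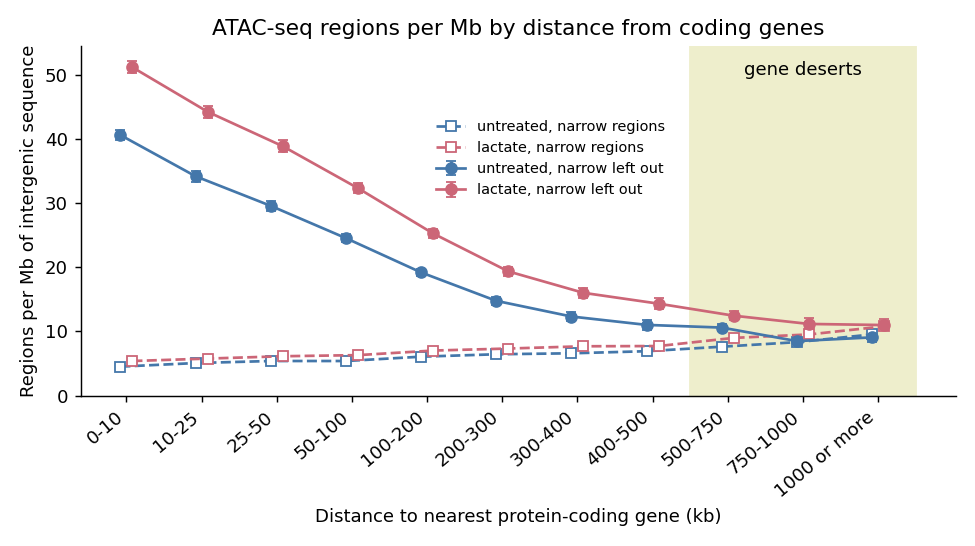
Regions per Mb of intergenic sequence (vertical axis) against distance from the nearest protein-coding gene in kb (horizontal axis), for the untreated and lactate lists. Filled circles are regions without the narrow ones, with exact 95% Poisson intervals, open squares are narrow regions, and shading marks gene deserts. Circles go from 40.6 and 51.2 within 10 kb to 9.07 and 11.0 per Mb beyond 1 Mb, with the lowest untreated value, 8.48, at 750 to 1000 kb, while squares rise to 9.53 and 10.8.

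Regions next to the limits of the rule are given as a description. A 200 bp region 500028 bp from TENM4, a synaptic adhesion gene, with 12 tags and 4.14-fold enrichment over the authors' local background, lay just inside the distance limit in the untreated list. A 502 bp region 499996 bp from C1orf87, with 17 tags and 5.08-fold enrichment, lay just outside it, and in the lactate list the region at the same place lay 500040 bp away and was a member. At the width limit, 28 single-summit regions of the greatest narrow width in untreated deserts, with a median of 41 tags, were left out, while 16 regions 1 bp wider, at 227 bp, with a median of 51.5 tags were kept. Regions of 227 to 232 bp with a single summit numbered 44 and 57, and 9 of the 20 highest-fold desert regions of each list were of this kind. The fold enrichments are the authors' own values for each peak.

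Desert regions were smaller than those near genes, and a larger share of them had the smallest width in the lists, 200 bp. The median width was 216.5 bp (order-statistic 95% interval 209 to 233) for untreated and 259 bp (250 to 265) for lactate members, against 386 and 352 bp within 50 kb of genes. Regions of exactly 200 bp made up 1031 of the 2294 untreated members (44.9%) and 982 of the 2772 lactate members (35.4%), against 12.8% and 10.6% near genes. Without them the desert medians were 396 and 344 bp and those near genes 434 and 384 bp, so most of the gap in width in the untreated list went with the 200 bp regions. Regions of 1000 bp or more numbered 35 (1.53%) and 22 (0.794%), against 4.43% and 2.94%. More than 1 summit was found in 10.51% and 7.504% of desert regions, against 21.9% and 15.2%. Desert summits were also lower, with a median of 12 tags in each library, or 0.658 and 0.779 per 1000000 tags. Near genes the medians were 19 and 21 tags, or 1.04 and 1.36 per 1000000 tags.

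**Figure D2:**
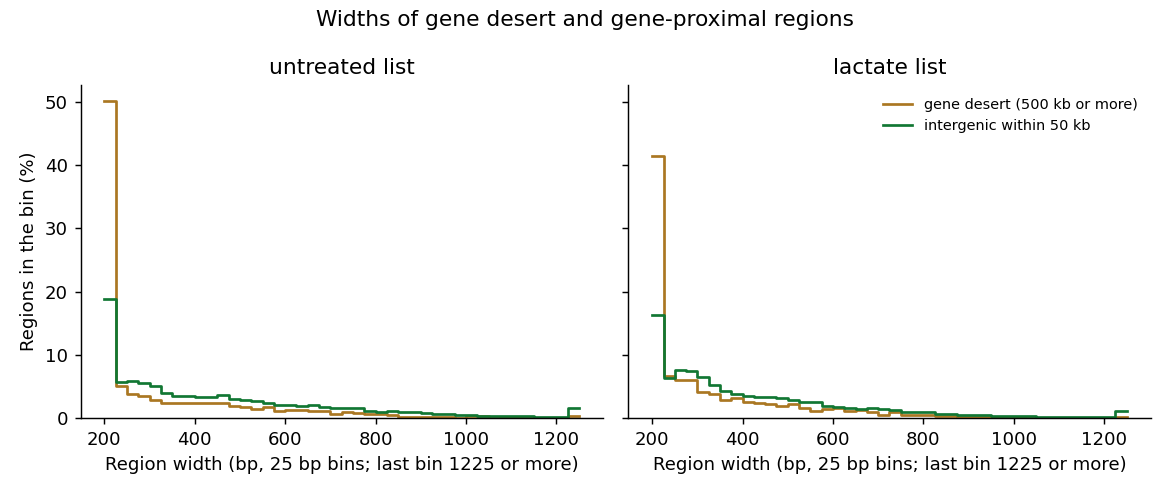
Share of regions in each 25 bp width bin (vertical axis, percent) against region width in bp (horizontal axis), for the untreated list on the left and the lactate list on the right. Lines separate gene desert regions from intergenic regions within 50 kb of a coding gene. The desert lines are highest in the first bin, where 44.9% and 35.4% of desert regions have the minimum width of 200 bp.

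The widest desert regions lay partly in the intervals around centromeres. The widest of the untreated list, chr1:125178818-125180768, measured 1951 bp with 346 tags at its highest summit, and that of the lactate list, chr5:49599524-49600896, measured 1373 bp with 39 tags. Both lie in deserts that contain a centromere. In the other deserts, a region of 1352 bp between PLXNA2, a semaphorin receptor, and CAMK1G, a kinase, had 67 untreated tags. A region of 1312 bp on chromosome 9, which overlaps the pseudogene DUX4L50 and the lncRNA LINC00537, had 135 untreated and 150 lactate tags at its summit. The region farthest from any coding gene, chr1:125182441-125182837, lay 3719312 bp from LINC02798, which the annotation used lists as coding, and had 70 untreated and 44 lactate tags.

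Of the untreated desert regions, 1790 (78.0%, 76.3 to 79.7%) overlapped a lactate region by at least 1 bp, and 504 did not. Over the whole untreated list 11.0% of regions had no lactate counterpart, and near genes 89.8% were shared. Of the lactate desert regions, 1655 (59.7%, 57.9 to 61.5%) overlapped an untreated region and 1117 did not, against 30.2% without a counterpart in the whole list and 69.3% shared near genes. Narrow regions were left out as members but counted as counterparts in the other list. When overlapping regions were joined, 315 of the 1790 untreated and 177 of the 1655 lactate members came together with a narrow region. By these counts a smaller share of desert regions was common to both lists, in both directions. If narrow regions were kept, the lactate share was 73.0% in deserts and 70.6% near genes, which turns that order around.

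Sharing rose with summit height in deserts as elsewhere. Untreated desert regions of up to 8 tags were shared in 52.8% of cases against 63.9% near genes, those of 9 to 10 tags in 65.0% against 75.8%, and those of 11 to 12 tags in 76.4% against 83.2%. From 17 to 24 tags the shares were 93.8% and 94.3%, and all 129 untreated desert regions above 40 tags were shared. In the lactate list the order at equal height was the other way: 65.9% of desert regions of 13 to 16 tags were shared against 55.4% near genes, 83.9% (79.7 to 87.5%) against 72.3% at 17 to 24 tags, and 96.3% against 87.2% at 25 to 40 tags. The lower share of the lactate deserts as a whole thus went with their lower summits, and it was not lower at equal tags. Narrow counterparts counted here too, and narrow regions made up more of the lists in deserts than near genes. Their part in the order at equal height was not tested.

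Regions found in a single list were mostly small. The 504 untreated ones had 6 to 34 tags with a median of 9, and 397 of them (78.8%) were 200 bp wide. The 1117 lactate ones had 5 to 52 tags with a median of 9, and 570 (51.0%) were 200 bp wide. The lactate-only region with the highest fold enrichment, chr4:34158898-34159279 between PCDH7, a protocadherin, and ARAP2, had 26 tags and 13.5-fold enrichment. The next were chr6:115323070-115323376 near the kinase gene FRK with 27 tags, chr11:90747030-90747482 near CHORDC1 with 23, chr5:89556262-89556892 near the transcription factor gene MEF2C with 22 and chr21:16794991-16795282 near CXADR with 21. All 5 were wider than 200 bp, from 292 to 631 bp. The 5 highest untreated-only regions had 20 to 29 tags and 4 of them were exactly 200 bp wide, led by chr18:38513656-38513855 in the desert before PIK3C3 with 29 tags and 13.8-fold enrichment. The exception, chr6:59162980-59163442, measured 463 bp with 21 tags and lies in a desert that contains a centromere.

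To compare heights, overlapping regions of both lists were merged, and merged regions that contain a narrow region of either list were left out. This gave 3079 desert regions, 1458 of them in both lists. The step dropped 315 of the 1790 shared untreated members and 177 of the 1655 shared lactate members, and 1 more lactate member came within 500 kb of a gene once merged. The 489 merged regions dropped in this way had a median ratio, as defined next, of 1.32 (1.18 to 1.39), with 337 above 1 and a median of 28 tags in both libraries together. They enter no value below unless this is said. The ratio of the lactate to the untreated summit pileup, scaled by the tag total of its library, had a median of 1.46 (1.42 to 1.51) in deserts and 1.68 (1.67 to 1.69) within 50 kb of genes. It was above 1 in 1171 of 1458 desert regions (80.3%), where the share over all shared regions was 90.9%. It was 2 or more in 334 (22.9%), against 31.1% over all. Desert regions had fewer tags to begin with, a median of 32.5 in both libraries together against 50 near genes. The ratio climbed with tags throughout near genes, but in deserts it climbed steadily only up to 31 to 40 tags. At 20 tags or fewer the medians were 1.07 in deserts and 1.18 near genes. They were 1.40 and 1.42 at 21 to 30 tags, 1.74 and 1.61 at 31 to 40, 1.67 and 1.69 at 41 to 60, 1.71 and 1.80 at 61 to 80, and 1.80 and 1.85 at 81 to 120. Above 120 tags they were 1.68 (1.46 to 1.85) and 1.94 (1.91 to 1.96). Without deserts that span a centromere, the desert median in this last class was 1.80 (1.645 to 1.93) over 61 regions. With the classes weighted as they occur in deserts, the mean of the class medians was 1.51 in deserts and 1.54 near genes, so little of the gap was left at equal tags. Only regions called in both lists entered, and whether this selection sets the climb with tags was not tested.

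**Figure D3:**
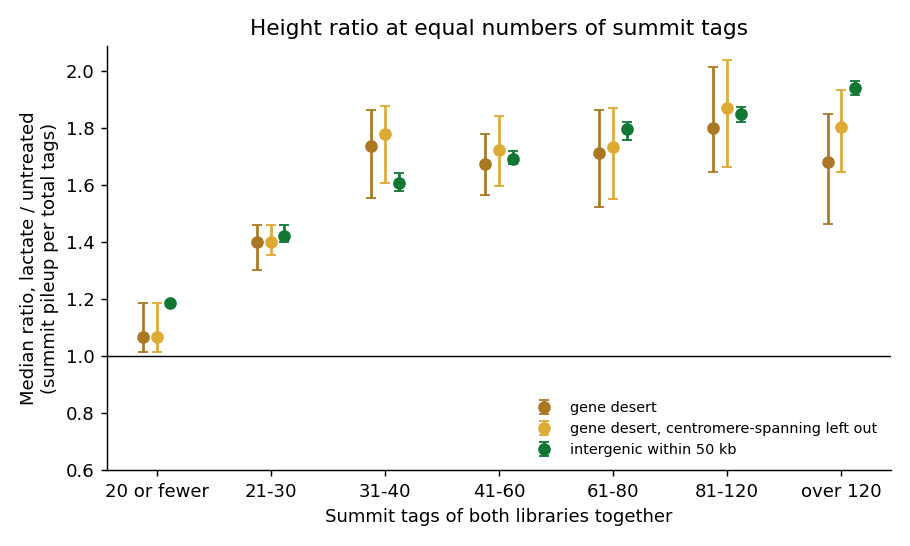
Median ratio of lactate to untreated summit pileup per total tags (vertical axis) in classes of summit tags of both libraries together (horizontal axis), with order-statistic 95% intervals. Points are gene desert regions, the same without centromere-spanning deserts, and intergenic regions within 50 kb of a coding gene. Medians climb from 1.07 and 1.18 in the lowest class to about the same level in deserts and near genes in the middle classes, and differ most above 120 tags, 1.68 against 1.94. Without centromere-spanning deserts the desert value above 120 tags is 1.80.

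The 5 tallest merged regions free of narrow regions had higher lactate than untreated summits per total tags. The tallest, chrX:99015643-99015995 between ERVFC1 and PCDH19, a protocadherin gene, held 348 untreated and 502 lactate tags, a ratio of 1.71 (exact conditional Poisson interval 1.49 to 1.97). The second, chr11:90807781-90808255 between CHORDC1 and FAT3, an atypical cadherin, held 292 and 536 (2.17, 1.88 to 2.52). The third, chr7:119264912-119265302 between ANKRD7 and KCND2, a potassium channel, held 299 and 459 (1.82, 1.57 to 2.11). The fourth, chr17:22521267-22521560, held 220 and 535 (2.88, 2.46 to 3.39); it lies within 1 kb of MTCYBP13, a nuclear copy of a mitochondrial gene, in a desert that contains a centromere. Whether mitochondrial reads placed at this copy add to its height was not tested. The fifth, chr13:56477038-56477264 before PRR20A, held 291 and 344 (1.40, 1.19 to 1.64) and is 227 bp wide, next to the width limit. These regions are 584732 to 1166262 bp from the nearest coding gene. Taller than all of them was a merged region that holds a narrow untreated region, chr13:86435965-86436258 between SLITRK6 and LOC124900338, with 564 untreated and 717 lactate tags (1.51). Another merged region, chr5:164705056-164705283 between MAT2B and TENM2, holds a narrow lactate region. With 269 and 397 tags (1.75), it would rank above the fifth.

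Among 550 shared desert regions with 40 or more tags, 180 (32.7%) had a ratio of 2 or more, against 38.1% of all shared regions with as many tags. The highest was at chr2:220187933-220188473 in the desert between SLC4A3 and EPHA4, an ephrin receptor gene, with 8 untreated and 33 lactate tags (4.89, 2.21 to 12.2). It was followed by chr9:108184925-108185453 between KLF4, an epithelial transcription factor gene, and ACTL7B, with 10 and 40 tags (4.74, 2.33 to 10.6). The third was chr21:27569999-27570830 between LOC124905050 and HEMK2 with 16 and 58 tags (4.30, 2.44 to 8.005). The next were chr4:33411219-33411632 in the PCDH7 desert with 9 and 32 tags and chr3:117045122-117045596 between LSAMP and IGSF11 with 18 and 64 tags, both at 4.21. The lower bounds of their intervals ran from 1.97 to 2.47. These 5 were named for their ratio, so the values are a description.

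Lower lactate summits made up a larger share of the regions in deserts that contain a centromere than elsewhere, although most of them lay elsewhere. In the class with 40 or more tags, 56 of 550 regions (10.2%) had a ratio below 1, against 3.59% of all shared regions with as many tags. Of these 56, 24 were among the 36 regions of centromere-spanning deserts, and the other 32 were among 514 regions elsewhere (6.23%). Over all tags, the 54 shared regions of centromere-spanning deserts had a median ratio of 0.854 (0.762 to 1.07) with 21 above 1, and the 1404 others had 1.48 (1.45 to 1.52) with 1150 above 1. Of the 5 lowest ratios, 4 lay on chromosome 1 between LINC02798 and H3-7, a histone gene, within the span chr1:143184672-143233423. The tags there were 44 untreated and 14 lactate at chr1:143232674-143233423 (0.377, 0.191 to 0.701), 102 and 33, 35 and 12, and 36 and 13. All 15 shared regions of this desert had ratios below 1, from 0.377 to 0.790. The remaining one of the 5, chr7:109901879-109902291 near IMMP2L, had 31 and 10 tags (0.382, 0.167 to 0.80). Sequence around centromeres is repetitive, and the part of read placement in these values was not tested.

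**Figure D4:**
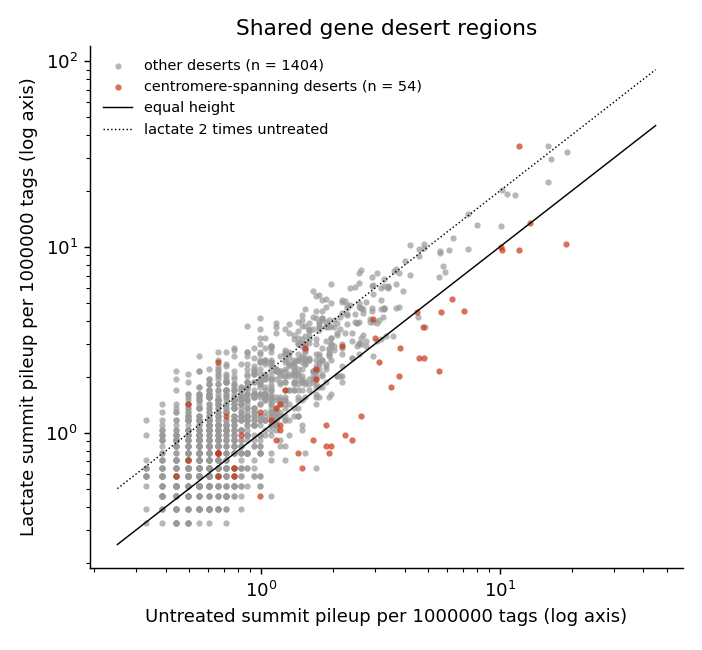
Lactate summit pileup per 1000000 tags against untreated summit pileup per 1000000 tags (both log axes) for 1458 shared gene desert regions, with lines of equal height and of a lactate value 2 times the untreated one. Red points are the 54 regions of centromere-spanning deserts, of which 21 lie above the line of equal height, against 1150 of the 1404 other regions.

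Single deserts differed in how many regions they held. Of 326 deserts with sequence 500 kb or more from a coding gene, 276 held at least 1 merged region and 50 held none. Of these 50, 5 contain a centromere, and the longest of them, on chromosome 14, has 17.5 Mb at this distance. The longest of the other 45, on chromosome 21, has 3.91 Mb. Unsequenced stretches of the assembly were not subtracted from these lengths. Whether deserts without regions hold sequence to which reads can be placed was not tested. Deserts that held any had a median of 7.5 regions, and 46 held 20 or more. The 10 richest held 505 of the 2957 regions between coding genes outside centromere-spanning deserts (17.1%), in 11.7% of the sequence of those deserts. Among the 81 deserts of 1 Mb or more without a centromere, regions per Mb ran from 0 to 29.0 with a median of 11.2. Lactate regions outnumbered untreated ones in 176 deserts, were fewer in 52 and equal in 48. The lactate list was also the longer one over the whole genome, with 102720 against 81142 regions. In 112 deserts with at least 5 shared regions, the median ratio was above 1 in 107 and ran from 0.461 to 2.41.

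The stretch between PCDH7 and ARAP2 on chromosome 4 held the most, 69 regions in 3.86 Mb, with 33 in both lists, 24 in the lactate list alone and 12 in the untreated list alone. Its 33 shared regions had a median ratio of 1.87, from 0.711 to 4.21. The stretch between ZEB2, a transcription factor of the epithelial to mesenchymal transition, and ACVR2A, an activin receptor, held 58 (22 in both lists) with a median ratio of 1.69. That between NUDT12 and EFNA5, an ephrin gene, held 52 (17 in both), and that between IFTAP and LRRC4C, a synaptic adhesion gene, held 51 (24 in both). The other 6 of the 10 richest held 41 to 50 regions. They lie between SLITRK5 and GPC5, LOC105372073 and PIK3C3, CTNNA2 and SUCLG1, LINGO2 and ACO1, GOT2 and CDH8, and OTOL1 and SI. In each of the 10, more regions were in the lactate list alone than in the untreated list alone. The same held over the whole lists, with 31001 lactate (30.2%) and 8886 untreated (11.0%) regions without a counterpart. Median ratios of the 10 ran from 1.40 to 1.87, where the median over all shared regions was 1.68.

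**Figure D5:**
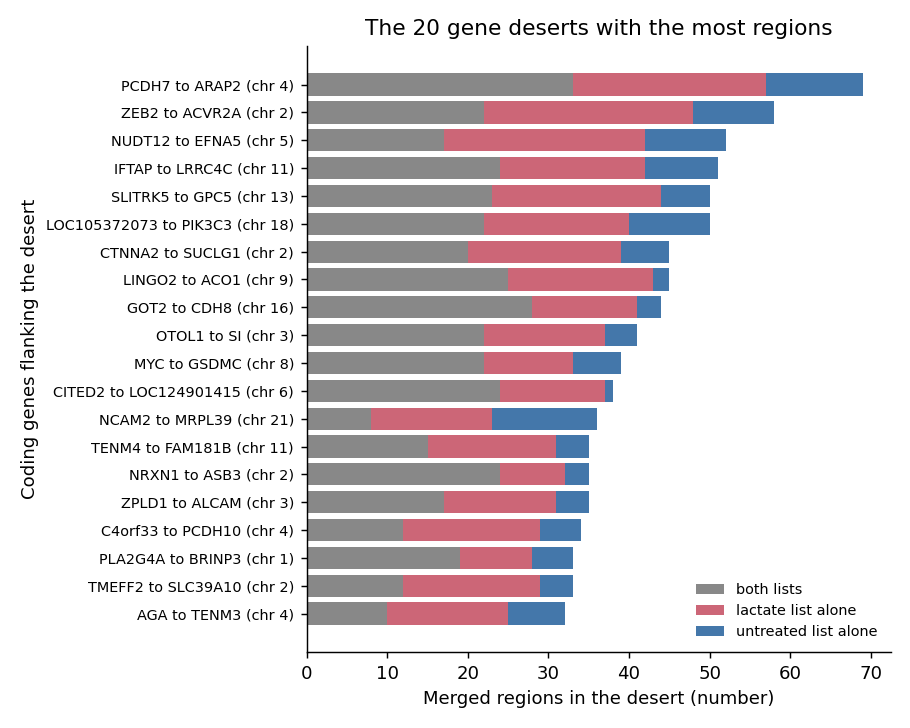
Number of merged regions (horizontal axis) in each of the 20 gene deserts with the most, named by the flanking coding genes (vertical axis). Grey marks regions of both lists, red those of the lactate list alone and blue those of the untreated list alone. The longest bar, PCDH7 to ARAP2, counts 33, 24 and 12.

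By regions per Mb the order was different and at the top rested on short stretches. A stretch of 3276 bp between GADD45G and DIRAS2 held 1 region. It was followed by CRYBA4 to MN1 with 11 regions in 0.118 Mb, CD83 to JARID2 with 10 in 0.109 Mb, IGFBP3 to TNS3 with 24 in 0.354 Mb and TBL1XR1 to KCNMB2 with 21 in 0.335 Mb. Among stretches of 0.5 Mb or more, a limit added after the values were seen, MYC to GSDMC was densest, with 39 regions in 0.962 Mb, or 40.5 per Mb. H3Y1 to CDH18 held 33.1 per Mb, SLC4A3 to EPHA4 32.2, LOC124905050 to HEMK2 29.8 and CBLB to CCDC54 29.5. In the stretch beside MYC, the growth-promoting transcription factor gene, 22 regions were in both lists, 11 in the lactate list alone and 6 in the untreated list alone. Over the whole lists, 30.2% of lactate and 11.0% of untreated regions had no counterpart. Summits of this stretch reached 47 untreated and 71 lactate tags. Of its 22 shared regions, 21 had a ratio above 1, with a median of 1.74. Over all shared regions, 90.9% had a ratio above 1 and the median was 1.68.

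A list of 50 genes known for lying beside long regulatory deserts was also followed. Of these, 24 bordered a desert of this definition and 22 bordered one with a region. Their 26 deserts held 303 merged regions in 15.3 Mb, or 19.8 per Mb (17.7 to 22.2), and the 277 other deserts without a centromere held 12.5 per Mb (12.02 to 12.98). Shares in both lists were alike, 48.8% and 47.2%. The median ratio was 1.66 (1.55 to 1.80) with a median of 38.5 tags against 1.43 (1.40 to 1.48) with 32 tags in all other desert regions. For shares and ratios, unlike for regions per Mb, these others include centromere-spanning deserts, whose 54 shared regions had a median of 0.854. The 2 sets were not compared at equal tags. The 5 genes with the most regions were ZEB2 with 58, MYC with 39, NR2F1 with 30, NR2F2 with 27 and EPHA4 with 25. NR2F1 and NR2F2 encode orphan nuclear receptors, and their median ratios were 1.65 and 1.501. EPHA4 had 14 shared regions, all with ratios above 1, from 1.10 to 4.89, and a tallest summit of 135 untreated and 233 lactate tags. The share above 1 was 90.9% over all shared regions and 80.3% over those of deserts. SOX9, which directs cartilage and gonad development, and TFAP2A, a factor of the epidermis, bordered 23 regions each, with medians of 1.29 and 1.67.

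The next 2 deserts were chosen after their values were seen. The X chromosome desert of MIR221 and MIR222, between DIPK2B and KRABD4, held 12 regions in 0.246 Mb, 11 of them in both lists and 1 in the lactate list alone. Its summits ran from 7 to 52 untreated tags (median 20) and from 15 to 61 lactate tags (median 28.5). Of its 11 ratios 10 were above 1, where the share over all shared regions was 90.9%. The exception, chrX:45801605-45801868, had 21 untreated and 17 lactate tags (0.959). The median ratio was 2.30, the second highest among the 112 deserts with 5 or more shared regions. Over all shared regions the median was 1.68. The desert between KLF4 and ACTL7B held 19 regions, 16 in both lists, with ratios from 0.846 to 4.74 and a median of 1.23. There chr9:108093774-108094819 was the tallest, with 72 untreated and 89 lactate tags (1.46), and the other 15 shared regions had lower ratios than the region at 4.74 named above.

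Desert regions lay inside lncRNAs about as often as regions near genes did, but a smaller share lay at lncRNA ends. Of the untreated desert regions 550 (24.0%) lay inside an annotated lncRNA, and of the lactate ones 688 (24.8%), against 22.6% and 21.6% near genes. Within 1 kb of an lncRNA end lay 3.14% (2.46 to 3.94%) and 2.89% (2.29 to 3.58%), against 9.88% and 9.03%. In all, 127 merged regions lay within 1 kb of an end of 127 non-coding genes, 84 of them lncRNAs, 22 pseudogenes and 2 miRNA genes. By summit tags these were led by MTCYBP13, then by DUX4L50 and LINC00537 at a common region, and by LINC02226, MIR4458HG and the pseudogene LOC100419318 at another. LOC102724929 had 45 untreated and 94 lactate tags (2.48), LOC105369892 43 and 93 (2.56), LOC102724542 52 and 63 (1.44) and the pseudogene RPL31P43 42 and 72 (2.03). Desert regions also stood farther from each other. The median distance to the nearest region of the same list was 24.0 kb among untreated and 18.6 kb among lactate regions, against 6.42 and 5.36 kb near genes, and 30.0% and 35.6% had a neighbour within 10 kb, against 64.9% and 72.1%.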

How the data were processed

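ATAC-seq peak lists of 1 untreated and 1 lactate-treated CAL27 library were analysed, grouped by the treatment labels. According to the submitters' processing notes, reads were handled with fastp 0.20.0 and BWA 0.7.12 on hg38. The notes give MACS2 2.1.0 as peak caller, whereas the file headers give MACS 2.2.7.1. Each library's peaks were called by the authors separately, per the file headers, with no control, at a q-value threshold of 0.05, with a shift of 100 bp and an extension of 200 bp. The deposited pileup is a signal, a tag coverage at the summit that is not scaled for depth. The deposited fold enrichment is a ratio to the local background and served only to describe and rank peaks within a list. Positions and widths were deposited in base pairs.

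Regions of several summits entered as 1 region, with the highest of their pileups, and single-summit regions of 218 to 226 bp were left out. Distances were measured to RefSeq protein-coding genes (GRCh38.p14). Overlaps were computed with Python 3.11.15 and pandas 2.3.3 and checked with bedtools 2.31.1 and on simulated lists, and intervals came from scipy 1.17.1. For a stricter list, the −log10 of a Poisson p was recomputed from the deposited pileup and fold. Centromere-spanning deserts are those that hold an approximate hg38 centromere position, entered by hand from general knowledge. No genome sequence was used here, so sequences of the regions themselves are not shown; promoter windows and miRNAs came from RefSeq.

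Regions and genes were named by rule: the 5 shared regions with most tags, the 5 highest-fold regions of each list alone, the widest and farthest regions, the 5 highest and 5 lowest ratios at 40 or more tags, the 10 deserts with most regions and the 5 densest, and up to 10 non-coding genes at region ends. Members, lists and rules were chosen with earlier results of these data known. Alternatives covered the distance limit, a stricter −log10 p, narrow regions, centromere-spanning deserts, lists of equal length, the overlap and a pseudocount. The alternatives without regions of the minimum width or of the 6 widths next above the narrow ones (227 to 232 bp) were added after seeing the data.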

Additional observations from a re-analysis of the deposited data

How the results depend on the processing

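No paired analysis was possible because there is 1 library per group. Of 60 values under other settings, 26 moved by less than their interval or, for numbers of regions, by less than 1.5 times, and 34 moved further. For shares, widths and ratios, the desert value stayed below that near genes in all settings but one. That was the lactate share with narrow regions kept, 73.0% against 70.6%. Numbers of regions were lower in deserts in every setting, but deserts also hold less sequence, so this order says little. In what follows the untreated value comes before the lactate value. At 250 kb or more there were 5136 and 6424 regions, of median width 261 and 278 bp, with 80.6% of the untreated ones shared. At 1 Mb or more there were 575 and 691, of 200 and 234 bp, with 75.1% and 57.2% shared. When a −log10 p of 7 or more was required, 1762 lactate regions were left, median widths were 262 and 319.5 bp, 63.3% of the lactate regions were shared, and the median ratio was 1.55. With narrow regions kept there were 4222 and 5000, the lactate width was 221 bp, and 86.3% and 73.0% were shared. With lists of equal length, the lactate width was 294.5 bp, the shares were 68.7% and 70.1% and the ratio was 1.58. An overlap of 50% of both regions gave shares of 71.1% and 53.8%. Without regions of the minimum width, a setting chosen after seeing the data, there were 1263 and 1790 regions of 396 and 344 bp, 88.9% and 63.1% were shared and the ratio was 1.60. The cause of these shifts was not tested, beyond the fewer or additional regions that each setting admits. Without centromere-spanning deserts, without single-summit regions of 227 to 232 bp, and with 1 added to each pileup, no value moved by that much.

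At a median of 12 tags per summit, a single region's ratio has a wide counting interval, and absence from a list means only that no region was called there at this depth. Variation between cultures cannot be estimated from 1 library per group.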
